A study of Xenopus tropicalis with 11 samples.

Results

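In whole Xenopus tropicalis embryos at stage 10.5, 3768 of the 166593 Otx2 intervals on chromosomes (2.26%) met a peak of Gsc, a peak of TLE and a peak of p300 and no peak of Lim1. These sites were chosen from the peak lists by that rule, with an overlap of at least 1 bp, so the presence of Otx2, Gsc, TLE and p300 and the absence of Lim1 are what defines them and not findings. The same rule over every sequence of the Otx2 list gave 4146 intervals of 194993, of which the 378 outside the chromosomes were left aside. No site was dropped by any further filter. The histone marks and the spacing along the chromosomes were not part of the rule and are described here. The distances between summits are described as well. The rule sets no such distance but limits it, because the Gsc, TLE and p300 peaks must all meet the same Otx2 interval.

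The study mapped binding by ChIP-seq, in which DNA bound by a protein is recovered with an antibody and sequenced. Each of the 7 antibodies (Otx2, Gsc, Lim1, TLE, p300, H3K4me1 and H3K27ac) gave 1 library, from chromatin of 2000 to 3000 fixed embryos of the Nigerian A strain, and 4 input libraries of unselected chromatin accompany them. All samples share strain, stage and tissue, and the labels name no mutation or treatment. The inputs were not analysed here. Otx2 and Lim1 share an input, as do TLE and p300, and both histone marks. With 1 library per antibody there is no replicate error: the tests compare lists from single libraries, neighbouring sites are not independent, and the intervals reflect counting alone. The lists do not give the sequencing depth. Because whole embryos were used, overlapping peaks may stem from different cells, and fewer bound cells cannot be told apart from weaker binding per cell.

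Otx2 and Gsc (goosecoid) are homeodomain transcription factors of the Spemann-Mangold organizer, the dorsal signalling centre of the gastrula. Their DNA-binding domains are of the bicoid type and recognise similar DNA. Otx2 activates head organizer genes, whereas Gsc is a repressor that can recruit TLE, the vertebrate Groucho corepressor. p300 is a coactivator that acetylates histone H3 at lysine 27, so a site that holds TLE and p300 carries coregulators of opposite action. Lim1 (Lhx1), absent here by the rule, is a LIM homeodomain activator of the head organizer. Methylation at lysine 4 (H3K4me1) is typical of enhancers, whether active or not, and H3K27ac of those in use and of promoters.

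At the edges of the rule, 15 of the sites shared 10 bp or less with their Gsc interval, 4 with their p300 interval and none with their TLE interval. The smallest shared lengths were 2 bp for Gsc, 2 bp for p300 and 15 bp for TLE. A Lim1 interval lay within 10 bp of 12 sites without meeting them, and 4 intervals were left out for sharing 10 bp or less with a Lim1 interval. The median gap from a site to the nearest Lim1 interval was 4.27 kb, and 638 sites (16.9%) had one within 1 kb. Other Otx2 intervals without Lim1 had similar values. Those with TLE and p300 but no Gsc had a median of 4482 bp and a share of 16.9%. For those with Gsc and TLE but no p300 these were 4718 bp and 14.2%.

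The Otx2 intervals of the sites were 66 to 1277 bp wide, with a median of 301 bp (quartiles 234 and 381 bp). The median over all Otx2 intervals on chromosomes was 141 bp. How far the overlap rule itself selects wide intervals was not tested. The Gsc peaks were small and nested: 90.8% of the sites (95% interval 89.8 to 91.7) held a whole Gsc interval, whose median width was 79 bp. TLE peaks were the widest, with a median of 327 bp, and 53.6% of the sites (52.0 to 55.2) lay wholly inside a TLE interval. p300 peaks had a median of 208 bp, and 42.8% of the sites held one whole. No Gsc or p300 interval served more than 1 site, and 2 sites shared a TLE interval. The intervals given here are exact (Clopper-Pearson) ones.

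The sites were compared with the Otx2 intervals on chromosomes that differ from them in 1 list. The sites without p300 (1215 intervals) met Gsc and TLE, but neither p300 nor Lim1. The sites with Lim1 (4655) met all 5 factors and coregulators. The sites without Gsc (37293) met TLE and p300, but neither Gsc nor Lim1. A class with Gsc and p300 but without TLE and Lim1 held 153 intervals, of a median width of 155 bp, and was not compared by a test. H3K27ac was met by 64 of these (41.8%, 33.9 to 50.1) and H3K4me1 by 80 (52.3%, 44.1 to 60.4). Both shares were higher than at the sites (14.1% and 34.7%).

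Most of the 3768 sites met neither histone mark. H3K27ac was met by 531 of them, or 14.1% (95% interval 13.0 to 15.2), and H3K4me1 by 1308, or 34.7% (33.2 to 36.3). Over all Otx2 intervals on chromosomes the shares were 15.9% for H3K27ac and 27% for H3K4me1. At this overlap of 1 bp the share with H3K27ac was close to the background and is not a result about the sites, while the share with H3K4me1 was above it. The shares depended on the setting. With an overlap of 50% of the shorter interval, H3K27ac was met by 6.88% of the sites (10.97% of all Otx2 intervals) and H3K4me1 by 21.6% (19.7%). When peaks of all lists had to reach a −log10 q of 5, the shares were 9.96% (13.5%) and 19.9% (18.7%), and at a −log10 q of 10 they were 6.32% (8.15%) and 7.11% (5.01%). Both settings also thinned the mark peaks, and 60.3% and 78.3% of the sites so rebuilt met a weaker Lim1 peak. In another setting a −log10 q of 5 was asked for presence alone, with absence and marks taken at any q. The shares were then 14.4% and 39.0% of 841 sites, and the background was not computed. The sites were wider than Otx2 intervals in general, and the part of width in the H3K4me1 share was not tested against all Otx2 intervals. Both marks were met by 425 sites (11.3%, against 11.8% of all Otx2 intervals) and neither by 2354 (62.5%, against 68.9%). H3K4me1 without H3K27ac was met by 883 (23.4%) and H3K27ac without H3K4me1 by 106 (2.81%). These single-mark shares were 27.2% and 3.49% at the sites without Gsc, and 23.3% and 4.34% at those with Lim1. At the sites without p300 they were 10.9% and 2.14%. By chromosome, the share with H3K27ac ran from 11.5% on chromosome 1 to 20.2% on chromosome 10, and that with H3K4me1 from 31.3% on chromosome 2 to 40.3% on chromosome 10. Chromosome 10 also had the highest H3K27ac share without p300 (10.3%), with Lim1 (68.31%, against 68.27% on chromosome 9) and without Gsc (24.4%). Few sites without p300 lay on chromosome 10, since 1186 of the 1215 were on the other chromosomes. For H3K4me1 chromosome 10 was highest among these classes only without Gsc (48.4%). The differences between chromosomes were not tested.

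**Figure D1:**
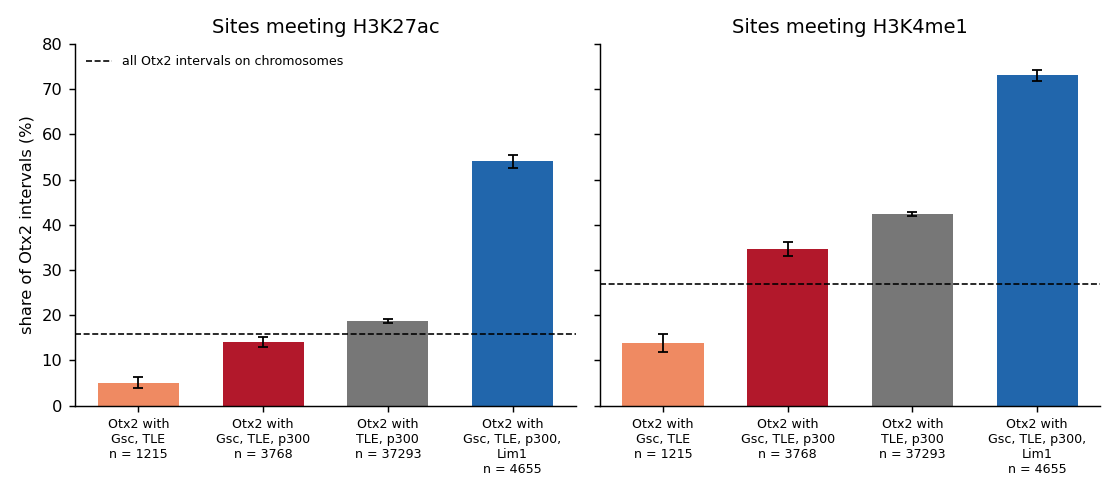
Share of Otx2 intervals (y axis, %) that met H3K27ac (left) and H3K4me1 (right) in 4 classes of chromosomal Otx2 intervals named by the other lists they met. Bars are shares with exact 95% intervals for counting error, and the dashed line is the share over all Otx2 intervals on chromosomes (15.9 and 27%). The 3768 sites with Gsc, TLE and p300 (14.1 and 34.7%) stand between those without p300 and those without Gsc, and far under those with Lim1 (54.1 and 73.1%).

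The sites with p300 met both marks more often than Otx2 sites that held Gsc and TLE without p300. The sites without p300 met H3K27ac in 5.02% of cases (3.86 to 6.40) and H3K4me1 in 13.8% (11.9 to 15.9). Within 10 strata of Otx2 interval width, the odds of a mark were higher at the sites with p300 by a Mantel-Haenszel odds ratio of 2.63 (95% interval 1.95 to 3.55, adjusted p = 9.08e-11) for H3K27ac and of 2.99 (2.48 to 3.62, adjusted p = 1.73e-32) for H3K4me1 (n = 3768 and n = 1215). The p-values carry a Benjamini-Hochberg adjustment over the 6 mark comparisons. The plain shares of both marks, without strata of width, were higher at the sites with p300 on 10 of 10 chromosomes. When peaks of all lists had to reach a −log10 q of 10, which gave n = 506 rebuilt sites against n = 147, the odds ratios were 5.26 and 6.12, short of the threshold (adjusted p = 0.0763 and 0.0617). Absence was judged at that threshold too, so the 147 could hold weaker p300 peaks, and 78.3% of the 506 met a weaker Lim1 peak.

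The sites met both marks less often than those that also held Lim1. H3K27ac was met by 54.1% (52.6 to 55.5) and H3K4me1 by 73.1% (71.8 to 74.3) of the sites with Lim1. The odds ratios of the sites without Lim1 against them were 0.184 (0.165 to 0.206, adjusted p = 1.14e-213) for H3K27ac and 0.253 (0.230 to 0.279, adjusted p = 5.24e-177) for H3K4me1 (n = 3768 and n = 4655). The plain shares, without strata of width, were lower on 10 of 10 chromosomes for both marks. Under the alternatives run neither ratio rose over 0.326. When peaks of all lists had to reach a −log10 q of 10, the ratios were 0.0432 and 0.0308 (n = 506 and n = 104). Of the 506 sites so rebuilt, 78.3% met a weaker Lim1 peak, so this setting mostly set strong against weaker Lim1 peaks. In another setting the factors and coregulators had to be present at a −log10 q of at least 5 or absent at any q. The marks could have any q, and the ratios were then 0.0268 and 0.0446 (n = 841 and n = 502).

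Among Otx2 sites with TLE and p300 but no Lim1, those with Gsc carried the marks less often than those without Gsc. H3K27ac was met by 18.7% (18.3 to 19.1) and H3K4me1 by 42.3% (41.8 to 42.8) of the sites without Gsc, whose median width was 209 bp. Within strata of width the odds ratios of the sites with Gsc were 0.478 (0.433 to 0.528, adjusted p = 1.50e-49) for H3K27ac and 0.605 (0.562 to 0.651, adjusted p = 2.73e-41) for H3K4me1 (n = 3768 and n = 37293). The plain shares of both marks, without strata, were lower on 10 of 10 chromosomes. Within strata of Otx2 fold enrichment in place of width, the H3K27ac ratio was 0.743 and that of H3K4me1 0.813. When peaks of all lists had to reach a −log10 q of 10, the H3K4me1 ratio turned to 1.21 (adjusted p = 0.328, n = 506 and n = 5244), and 78.3% of the sites so rebuilt met a weaker Lim1 peak.

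Over all 3768 sites, with or without an overlapping mark, H3K27ac covered the midpoints of the sites less often than positions 400 bp away. At the midpoint itself, 183 of the 3768 sites (4.86%, 4.19 to 5.59) were covered by H3K27ac. The covered share rose outwards to 6.05% at 100 bp, 8.97% at 200 bp and 11.7% at 400 bp, and then declined to 5.40% at 1 kb and 2.81% at 5 kb. The level at 400 bp was 2.40 times that at the midpoint. Of the 531 sites that met H3K27ac, 34.5% (30.4 to 38.7) had it over the midpoint, and the mark covered a median of 36.2% of the interval. H3K4me1 showed the same shape in a weaker form, with 19.1% at the midpoint, a highest value of 25.4% at 200 bp and 7.68% at 1 kb.

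**Figure D2:**
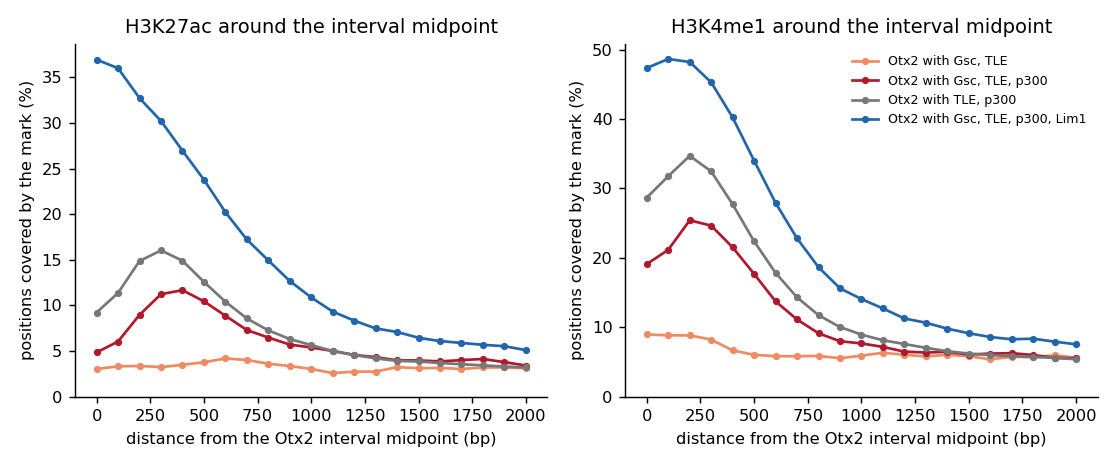
Share of positions (y axis, %) covered by an H3K27ac (left) or H3K4me1 (right) interval at a given distance from the midpoint of the Otx2 interval (x axis, bp, both sides pooled, steps of 100 bp) in the 4 classes. For the sites with Gsc, TLE and p300, H3K27ac is lower at the midpoint (4.86%) than at 400 bp (11.7%), whereas the sites with Lim1 are highest at the midpoint (36.9%).

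This shape was not shared by all classes. At the sites with Lim1, H3K27ac was highest at the midpoint, at 36.9%, fell to 20.2% at 600 bp, and lay over the midpoint in 68.3% (66.4 to 70.1) of the sites that met it. At the sites without Gsc the highest value, 16.0%, stood at 300 bp against 9.23% at the midpoint, a ratio of 1.74. The sites without p300 were nearly flat, with 3.05% at the midpoint, 4.20% at 600 bp and 2.92% at 5 kb. The shapes were not compared by a test. The shortest H3K27ac interval of the deposited list was 152 bp wide.

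Some sites without a mark over them had one nearby, as did intervals of the other classes. Of the 3237 sites that did not meet H3K27ac, 484 (15.0%) had an H3K27ac interval within 250 bp and 911 (28.1%) within 1 kb. The same shares were 16.8% and 30.3% at the sites without Gsc, 29.2% and 45.5% at those with Lim1, and 4.77% and 16.6% at those without p300. Of the 2460 that did not meet H3K4me1, 347 (14.1%) had one within 250 bp, against 19.3% without Gsc, 34.9% with Lim1 and 6.78% without p300. When a mark within 500 bp was counted, 31.6% of the sites had H3K27ac and 47.1% H3K4me1, against 27.1% and 37.7% of all Otx2 intervals. The median distance from an unmarked site to the nearest interval was 3625 bp for H3K27ac and 3563.5 bp for H3K4me1.

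The marks were more frequent at the widest sites. A wider interval has more room to meet a mark, and the marks of the other classes were not split by width in this way. With the sites split by Otx2 width into 4 groups of nearly equal size, 26.2% of the widest (382 to 1277 bp) met H3K27ac and 51.2% H3K4me1. In the other 3 groups the shares lay between 8.34 and 11.7% for H3K27ac and between 25.2 and 33.5% for H3K4me1, and they did not climb steadily with width: the lowest values were those of the sites of 235 to 301 bp.

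The Gsc, TLE and p300 lists give a summit for each peak, the position of its highest signal. Otx2 was called as broad intervals and has none. Most summits lay inside the Otx2 interval, in 98.6% of the sites for Gsc, 99.0% for TLE and 97.7% for p300. At the sites with Lim1 these shares were 98.9, 98.5 and 98.6%. Without Gsc they were 93.4% for TLE and 92.0% for p300, and without p300 97.2% for Gsc and 97.7% for TLE. The rule asks each peak to meet the Otx2 interval, which by itself keeps the summits in or near it. The distances between summits are limited in the same way. How far the rule alone accounts for the small distances was not tested. At the 3768 sites, the median distance from the Otx2 midpoint was 41.5 bp for TLE, 45.5 bp for Gsc and 57.5 bp for p300. The outermost of the 3 summits were a median of 81 bp apart (quartiles 31 and 130 bp). In 1400 sites (37.2%, 35.6 to 38.7) all 3 fell within 50 bp. At the sites with Lim1 the median was 72 bp (25 and 155 bp), and all 3 fell within 50 bp in 1915 (41.1%, 39.7 to 42.6).

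Among the 3 pairs of summits, Gsc and TLE lay closest and Gsc and p300 farthest apart. The median distance was 25 bp for Gsc and TLE (quartiles 10 and 66 bp), 28 bp for TLE and p300 (11 and 96 bp) and 63 bp for Gsc and p300 (20 and 120 bp). The Gsc summit was nearer to the TLE summit than to the p300 summit in 2616 sites (69.4%, 67.9 to 70.9), nearer to p300 in 1097 (29.1%) and equally near in 55. In the 3664 sites whose 3 summits differed in position, TLE was the middle one in 52.5% (50.8 to 54.1), Gsc in 26.8% and p300 in 20.7%. At the sites with Lim1, Gsc was nearer to TLE in 54.0% and nearer to p300 in 43.4%, and TLE was the middle summit in 42.1%.

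**Figure D3:**
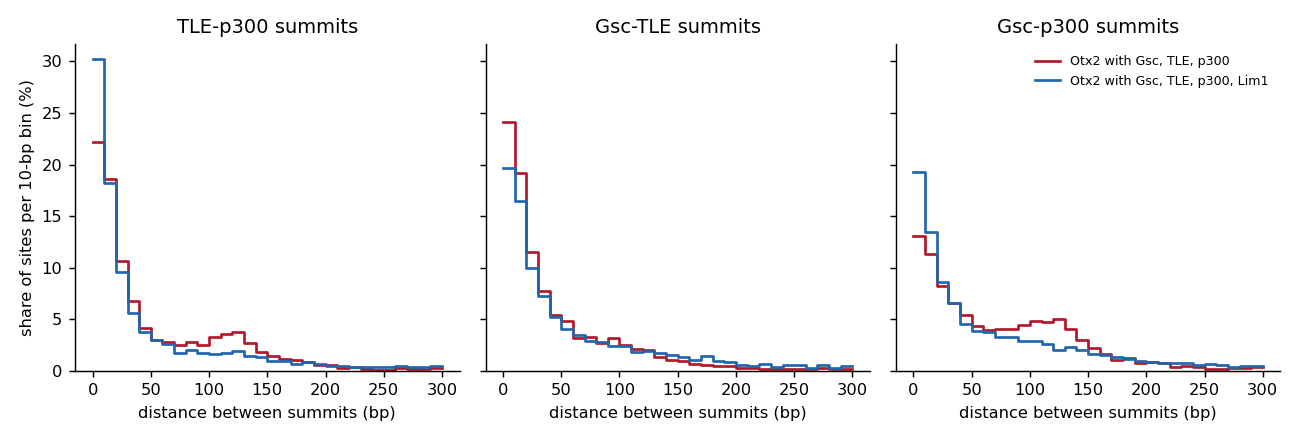
Distance between the summits of TLE and p300 (left), Gsc and TLE (middle) and Gsc and p300 (right) in bins of 10 bp (x axis), as a share of sites (y axis, %), for the 3768 sites with Gsc, TLE and p300 and the 4655 sites that also met Lim1. Both distances that involve p300 have a second rise between about 100 and 150 bp at the sites without Lim1, where 15.0% (TLE and p300) and 21.2% (Gsc and p300) of them fall.

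The distances of p300 had a second, low rise, described here as a second range of over 100 to 150 bp. Per bin of 10 bp, the TLE and p300 share went from 2.49% at 90 to 99 bp to 3.74% at 120 to 129 bp. The Gsc and p300 share went from 3.98% at 60 to 69 bp to 5.07% at 120 to 129 bp. TLE and p300 summits stood more than 100 and up to 150 bp apart at 567 sites (15.0%, 13.9 to 16.2), against 7.86% (7.11 to 8.67) of the sites with Lim1 and 9.66% (9.36 to 9.96) of those without Gsc. Gsc and p300 summits stood in that range at 799 sites (21.2%, 19.9 to 22.5), against 11.7% (10.8 to 12.6) of the sites with Lim1. Among intervals of 235 to 381 bp, a span chosen after the values were seen, the TLE and p300 shares were 20.5% (18.7 to 22.4), 8.26% (6.89 to 9.79) and 15.8% (15.2 to 16.5). At the 567 sites the Gsc summit was nearer to TLE in 88.5% (85.6 to 91.0). The range was picked after the distances were seen and carries no test. The spacing of summits within 1 interval was of the same size. Over the whole chromosomal lists, intervals with 2 summits had them a median of 134 bp apart for p300 and 131 bp for TLE. The TLE interval held 2 summits at 1333 of the sites. At the 888 sites whose p300 interval held 2 summits they were 129 bp apart, with the TLE summit between them in 57.2% (53.9 to 60.5). The part of such split peaks in the second range was not tested.

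Close summits, meaning within 50 bp, were compared by Mantel-Haenszel odds ratios within the same strata, with p-values adjusted over 5 comparisons. TLE and p300 summits were close at 62.6% of the sites, against 67.6% of those with Lim1, an odds ratio of 0.627 (0.568 to 0.692, adjusted p = 4.48e-20, n = 3768 and n = 4655). Gsc and p300 summits were close at 44.9%, against 53.0%, an odds ratio of 0.567 (0.515 to 0.624, adjusted p = 4.35e-31, n = 3768 and n = 4655). The background was 68% of all chromosomal Otx2 intervals with TLE and p300, and 51% of those with Gsc and p300. Both ratios stayed under 1 and past the threshold in every alternative run. Without strata they were 0.801 and 0.722, nearer to 1 than within strata of width, and the highest were 0.801 and 0.729. The lowest were 0.363, with a −log10 q of 10 asked of all lists, and 0.323, with a −log10 q of 5 asked for presence. In the first of these settings 78.3% of the rebuilt sites met a weaker Lim1 peak.

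The remaining comparisons of close summits depended on the setting. Gsc and TLE summits were close at 68.6% of the sites (background 65.4%), 59.2% of those with Lim1 and 79.2% of those without p300. The odds ratio against the sites with Lim1 was 1.16 (1.05 to 1.28, adjusted p = 0.00454, n = 3768 and n = 4655). It was 1.03 (adjusted p = 0.575, n = 3768 and n = 4655) when the closest of all summits were paired, and 0.440 (adjusted p = 0.00990, n = 506 and n = 104) when all lists had to reach a −log10 q of 10. Against the sites without p300 it was 0.894 (0.754 to 1.06) and fell short of the threshold (adjusted p = 0.196, n = 3768 and n = 1215), whereas without strata it was 0.573 (adjusted p = 1.97e-12). For TLE and p300 against the sites without Gsc (67.9% close) it was 1.10 (1.02 to 1.18, adjusted p = 0.0126) within strata of width, 0.792 without strata, and 1.08 (adjusted p = 0.0757) without chromosome 8 (n = 3768 and n = 37293 with it).

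The marks differed with the distance between the TLE and p300 summits. H3K4me1 was met by 40.0% (36.9 to 43.3) of the 929 sites with the summits 0 to 10 bp apart and by 33.0 to 37.5% of those 11 to 100 bp apart. It was met by 18.0% (14.9 to 21.4) of the 567 sites at over 100 to 150 bp. At the 335 sites with more than 150 bp between the summits the share was 41.2% (35.9 to 46.7). H3K27ac ran in the same way, from 16.8% (14.4 to 19.4) at 0 to 10 bp to 8.47% (6.31 to 11.1) at over 100 to 150 bp and 23.3% (18.9 to 28.2) beyond. The median Otx2 width of these 3 groups was 283, 315 and 384 bp, and its part was not tested. At the sites with Lim1 the H3K4me1 shares were 73.1% at 0 to 10 bp and 71.3% at over 100 to 150 bp, and at the sites without Gsc 46.4% and 30.4%. Beyond 150 bp both classes were higher as well, with 82.7% for H3K4me1 and 71.0% for H3K27ac at the sites with Lim1, and 50.3% and 31.8% at those without Gsc. These bins were set after the distances were seen and are a description.

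**Figure D4:**
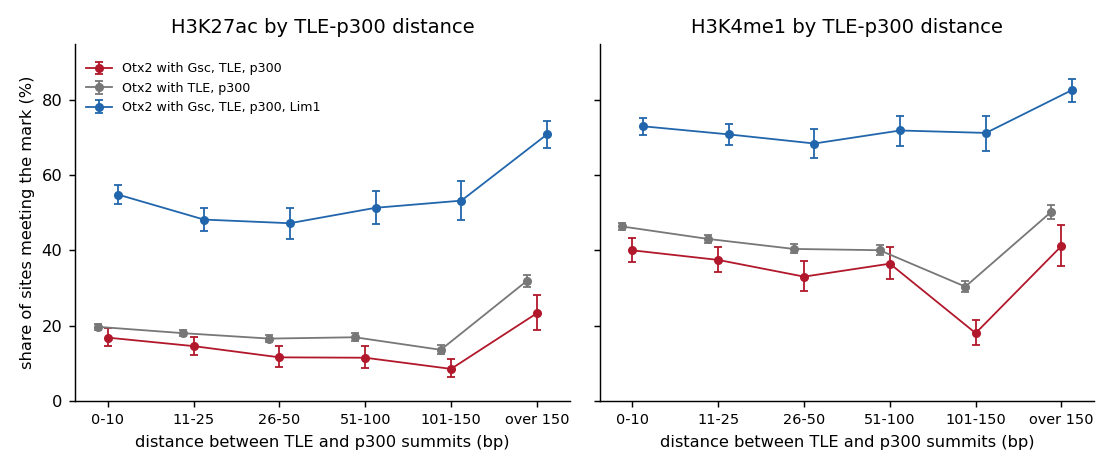
Share of sites (y axis, %) that met H3K27ac (left) and H3K4me1 (right) by the distance between TLE and p300 summits (x axis, bp) in 3 classes, with exact 95% intervals. At the sites with Gsc, TLE and p300 the H3K4me1 share is 40.0% at 0 to 10 bp, 18.0% at over 100 to 150 bp and 41.2% beyond.

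The number of p300 summits in the interval also went with the marks. The p300 interval had 1 summit at 2653 sites, 2 at 888 and 3 or more at 227. H3K27ac was met by 10.2% (9.09 to 11.4), 16.8% (14.4 to 19.4) and 48.9% (42.2 to 55.6) of these, and H3K4me1 by 30.5, 39.5 and 65.2%. Their median Otx2 widths were 285, 334.5 and 429 bp, so width moved along with the number of summits, and its part in these shares was not tested.

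Single sites show both arrangements. The smallest summit span was 1 bp, and 3 sites with it are given, those of highest Otx2 fold. On chromosome 6 at 121547758 to 121548019, the deposited folds were 7.90 for Otx2, 6.88 for Gsc, 20.0 for TLE and 4.66 for p300. On chromosome 9 at 51789227 to 51789522 they were 7.02, 8.41, 19.7 and 8.77, in the same order. The third tight site, on chromosome 3 at 10542689 to 10542940, had 6.65, 6.19, 15.0 and 4.09. None of the 3 met a histone mark. The folds are the authors' own for each peak and serve to describe, since folds of different lists are not on 1 scale.

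The sites with the widest summit spans differed from each other in which summit stood apart. On chromosome 5 at 54861395 to 54861797, the Gsc and TLE summits were 2 bp apart and the p300 summit 588 bp from TLE, outside the Otx2 interval. On chromosome 4 at 109872801 to 109873458, TLE and p300 were 2 bp apart and Gsc stood 582 bp from TLE. On chromosome 3 at 98539275 to 98540084, Gsc and TLE were 788 bp apart, with p300 between them and the Gsc summit outside the Otx2 interval. The first and the last of these met both marks, and the chromosome 4 site met H3K4me1 alone.

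Strong Otx2 enrichment occurred with and without the marks. Among sites that met both marks, the highest Otx2 folds were 13.9 on chromosome 5 at 37273491 to 37273743, 11.5 on chromosome 8 at 110122745 to 110123041 and 11.2 on chromosome 2 at 96721889 to 96722137. The last also had a TLE fold of 35.5 and a p300 fold of 17.7, with TLE and p300 summits at the same base and Gsc 7 bp away. Among sites that met neither, the highest were 14.9 on chromosome 1 at 82701930 to 82702175, 14.8 on chromosome 7 at 54287112 to 54287273 and 13.8 on chromosome 2 at 67230276 to 67230417. Of these, the chromosome 1 site had a p300 fold of 22.8 and a TLE fold of 6.34, and the chromosome 7 site a p300 fold of 6.03 and a TLE fold of 23.1. All 3 unmarked sites had their summits within 19 bp.

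The widest site and the narrowest one named here met both marks. The widest site, of 1277 bp, lay on chromosome 2 at 81719341 to 81720617, with its TLE and p300 summits 195 bp apart. The smallest width was 66 bp, the minimum of the Otx2 list, and the site of that width with the highest Otx2 fold lay on chromosome 3 at 119242529 to 119242594, with a p300 fold of 16.4 and all summits within 3 bp.

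The sites were spread over all 10 chromosomes, from 119 on chromosome 10 to 599 on chromosome 1. They made up 1.91% (chromosome 10) to 2.42% (chromosome 8) of the Otx2 intervals there. Most stood alone. The nearest other such site was a median of 82.0 kb away (quartiles 24.1 and 204 kb), and 480 sites (12.7%, 11.7 to 13.8) lay in clusters chained at gaps of at most 10 kb. Of these clusters, 209 were pairs, 18 were triples and 2 held 4 sites. With gaps of at most 5 kb there were 243 sites in clusters, and with gaps of at most 50 kb 1459, the largest cluster then holding 6.

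**Figure D5:**
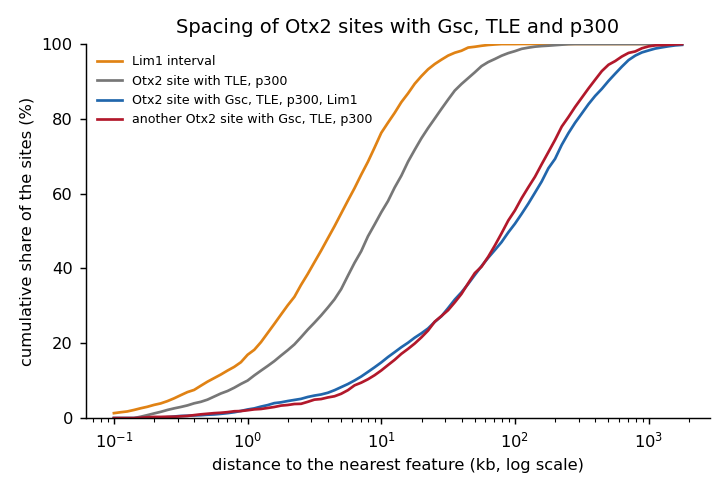
Cumulative share of the 3768 sites (y axis, %) by the distance to the nearest feature of 4 kinds (x axis, kb, log scale). Another site of the same kind lies within 10 kb for 12.7% of them and within 50 kb for 38.7%. The curve for sites with Lim1 as well is close to this (14.9 and 38.2%). A Lim1 interval lies within 10 kb for 76.2%, but these are far more numerous, with 81843 on chromosomes against 4655 sites with Lim1. Within 5 kb the share with a Lim1 interval was 54.6%, against 53.3% at sites without Gsc and 52.3% at those without p300.

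Around a site, other sites of the same kind were somewhat more frequent than in the Otx2 list as a whole. Within 10 kb, midpoint to midpoint, the sites had 12264 neighbours among the other Otx2 intervals, an interval near several sites being counted for each. Of these neighbours 4.19% were such sites, against 2.26% of all Otx2 intervals, a ratio of 1.85. Sites with Lim1 made up 5.99% of these neighbours, against 2.79% of the list (2.14), and sites without p300 1.29%, against 0.729% (1.77). Among the neighbours of sites with Lim1, 14.5% were themselves sites with Lim1, a ratio of 5.17. For sites without p300 around their own kind the share was 1.84% (76 neighbours), a ratio of 2.52. For sites without Gsc it was 28.2%, a ratio of 1.26. Within 50 kb these ratios of own kind were 1.49 for the sites described here and 3.02 for those with Lim1. They were 1.57 without p300 and 1.17 without Gsc. These ratios are descriptions of the lists, with no test.

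Marked sites occurred both in clusters and outside them. H3K27ac was met by 16.2% (13.1 to 19.9) of the sites in clusters and 13.8% (12.6 to 15.0) of those alone, and H3K4me1 by 38.3% (34.0 to 42.8) and 34.2% (32.6 to 35.8), with intervals that overlap. Of the 209 pairs, 11 had H3K27ac at both sites, 46 at 1 and 152 at neither. For H3K4me1 the numbers were 37, 84 and 88. The counts to expect if the marks of paired sites were unrelated were not computed, so these numbers do not show whether paired sites share marks.

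The clusters with most sites differed in their marks. On chromosome 3 at 85817474 to 85825265, 4 sites lay within 7.79 kb, among 6 Otx2 intervals and no Lim1 interval. All 4 met H3K4me1 and none H3K27ac. Their Otx2 folds were 4.27, 3.52, 3.51 and 4.07, and their p300 folds 2.91, 2.37, 2.23 and 2.51 from the first to the last position. All 4 Otx2 folds were under the median of 5.90 over the sites. On chromosome 5 at 54853802 to 54868137, 4 sites lay within 14.3 kb, with 1 Lim1 interval between them. The inner 2 met both marks and the outer 2 neither. The Otx2 folds in this cluster were 5.63, 4.60, 6.48 and 3.70, with 6.48 alone above the median. A cluster of 3 sites within 1995 bp on chromosome 4, at 78374513 to 78376507, met no mark at any of its sites. Its p300 folds were 3.13, 5.09 and 4.96. Its Otx2 folds, 4.17, 4.81 and 4.36, were all under the median too.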

How the data were processed

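Per the submitters' processing notes, MACS2 and deepTools were used, while their versions, the aligner, filters and genome build were not given in the sources used here. In their lists (narrow layout for Gsc, TLE and p300, broad for the others) the authors deposited, per peak, a fold enrichment (a ratio), −log10 p and −log10 q values and a score, 10 times the −log10 q without decimals (largest difference 1). The deposited narrow lists add a summit offset. Lines repeating an interval were reduced to 1, with its summit of highest fold. Where several intervals of a list met an Otx2 interval, the one sharing most bp gave the summit. Coordinates are those of the lists, counted from 1. The gene table supplied is for UCB_Xtro_10.0, in which genes run past the last peak by 10.6 to 29.6 Mb on 10 of 10 chromosomes, so no gene or sequence is assigned to a site.

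Mantel-Haenszel odds ratios were computed over 10 strata of Otx2 width, with Benjamini-Hochberg adjustment over 6 mark and 5 summit comparisons and a threshold of 0.05, in Python 3.11.15 with scipy 1.17.1. The code was tested on simulated data. The sites, comparisons and named regions were chosen with earlier results of these data known. The regions named follow a set rule, with ties going to the higher Otx2 fold (for clusters, the shorter span): tightest and widest summit spans, widest and narrowest interval, highest Otx2 fold with both marks or neither, and the 3 clusters with most sites.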

Additional observations from a re-analysis of the deposited data

How the results depend on the processing

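No paired analysis was possible because no group holds more than 1 library. The mark comparisons kept direction and side of the threshold in 69 of 72 other settings and in 60 of 60 fits with 1 chromosome left out, and the summit comparisons in 54 of 70 and 49 of 50. Where not, the cause was not tested.

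For close TLE and p300 summits against sites without Gsc, the odds ratio was 0.792 without strata, 0.696 in strata of Otx2 fold, 0.932 in strata of fold by width, 1.09 at a −log10 q of 5 in all lists, 1.05 with close meaning 100 bp, and 1.08 to 1.12 with 1 chromosome left out. For Gsc and TLE against sites without p300 it was 0.573 without strata, 0.478 by fold and 0.739 by fold and width. For Gsc and TLE against sites with Lim1 it was 0.972 at a −log10 q of 5 in all lists, 1.03 with the closest summits paired and 1.11 with 1 summit per interval.

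A −log10 q of 5 in all lists gave 2118 sites, of which 841 were among the 3768 and the other 1277 met a weaker Lim1 peak. H3K27ac was then met by 9.96% (13.5% of all Otx2 intervals) and H3K4me1 by 19.9% (18.7%). The shares were 6.88% (10.97%) and 21.6% (19.7%) with an overlap of 50% of the shorter interval. With 50 bp they were 11.7% (13.4%) and 31.0% (23.5%), and for a mark within 500 bp 31.6% (27.1%) and 47.1% (37.7%).

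The remaining settings were chosen after seeing the data. A mark over the midpoint gave 4.86% and 19.1%, against 9.23% and 28.7% at the sites without Gsc. It gave 36.9% and 47.3% at those with Lim1, and 3.05% and 8.97% at those without p300. A −log10 q of 10 in all lists gave 506 sites, of which 396 met a weaker Lim1 peak. The shares were 6.32% and 7.11%, against 8.15% and 5.01% of all Otx2 intervals. The odds ratios were then 5.26 (H3K27ac) and 6.12 (H3K4me1) against sites without p300, and 1.21 (H3K4me1) against sites without Gsc. For close summits they were 1.07 (TLE and p300, without Gsc), 0.440 (Gsc and TLE, with Lim1) and 0.394 (Gsc and TLE, without p300). A −log10 q of 5 for presence alone gave 841 sites, 14.4% with H3K27ac and 39.0% with H3K4me1. The ratios were then 1.10 (TLE and p300, without Gsc) and 1.13 (Gsc and TLE, with Lim1). For this setting the share over all Otx2 intervals was not computed.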
